A study of Mus musculus with 6 samples.

Results

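The ligands of the EGF receptor family, the proteases that release them and one receptor inhibitor were followed in NCI-H2228 tumours after an ALK inhibitor. The members were all array probe sets annotated to 1 gene symbol among EREG, HBEGF, TGFA, BTC, NRG1, EGF, ADAM17, ADAM10 and ERRFI1. That gave 25 probe sets of 9 genes, out of 54675 probe sets and 19775 genes on the array. AREG was also on the list of 10 genes and was not analysed here.

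NCI-H2228 is a human lung adenocarcinoma line that carries the EML4-ALK fusion, and it was grown under the skin of SCID mice, which lack B and T lymphocytes. CH5424802, later named alectinib, inhibits the ALK kinase and was given by mouth. Tumours were collected 6 h after vehicle, 4 mg/kg or 20 mg/kg, with 2 arrays in each of the 3 groups. All groups share the 1 cell line and the host strain. The labels do not say whether arrays within a group are from different mice, so p-values measure the spread between arrays, which may be technical. The organism is labelled mouse, while the probe sets are for human genes. How far RNA of the mouse host binds these probe sets was not measured, so each reading may hold some host signal.

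EGF-family ligands are made as proteins anchored in the cell membrane. ADAM17 and ADAM10 are membrane proteases that cut them free, a step called shedding. ADAM17 is known as the main sheddase of EREG, TGFA and HBEGF, and ADAM10 as that of EGF and BTC. The freed ligands bind EGFR, ERBB4 or both, whereas NRG1 binds ERBB3 and ERBB4, and the receptors pair and signal through ERK and AKT. ERRFI1, also called MIG6, binds the kinase domain of these receptors and blocks it, and ERK signalling is known to induce its gene. In lung cancers driven by ALK, signalling through EGFR is a known way around ALK inhibition.

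The arrays had a common floor at an intensity of 4.58, or 2.195 on the log2 scale, and each array had between 39.48% and 40.19% of its probe sets there. Epithelial markers lay above the level filter in 10 of 10 genes and lung adenocarcinoma markers in 4 of 6, with SFTPC and SFTPD near the floor, here under 1 log2 unit above it. Fibroblast markers passed it in 6 of 10, with LUM, PDGFRA, PDGFRB and THY1 near the floor. Leukocyte markers passed in 1 of 6 and endothelial markers in 2 of 6, with VWF, CDH5, TEK and CLDN5 near the floor. DUSP6, a phosphatase induced by ERK, read 13346 and 12806 with vehicle, 11041 and 8490.1 after 4 mg/kg and 312 and 279 after 20 mg/kg. The 18S ribosomal RNA control gave 1713 and 4058 with vehicle and between 374 and 637 in the 4 treated arrays.

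Of the 25 probe sets, 10 had a mean log2 level of at least 4 over the 6 arrays and were tested, and 15 did not. The 10 cover 7 genes, EREG, TGFA, BTC, EGF, ADAM17, ADAM10 and ERRFI1. Each gene was represented by its brightest probe set on average.

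HBEGF and NRG1 had no probe set past the filter. HBEGF, the heparin-binding ligand, was read by 4 probe sets whose intensity ran from 4.58 to 6.786, at most 0.568 log2 units above the floor. NRG1, a ligand of ERBB3 and ERBB4, was read by 6 probe sets, 5 of them at the floor in all 6 arrays and the other between 4.612 and 4.629. Neither gene was tested at these levels. A low reading does not show that a transcript was absent. The remaining untested probe sets were 1 of EREG, 2 of TGFA, 1 of BTC and 1 of ADAM17, with intensities of at most 14.1.

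**Figure D1:**
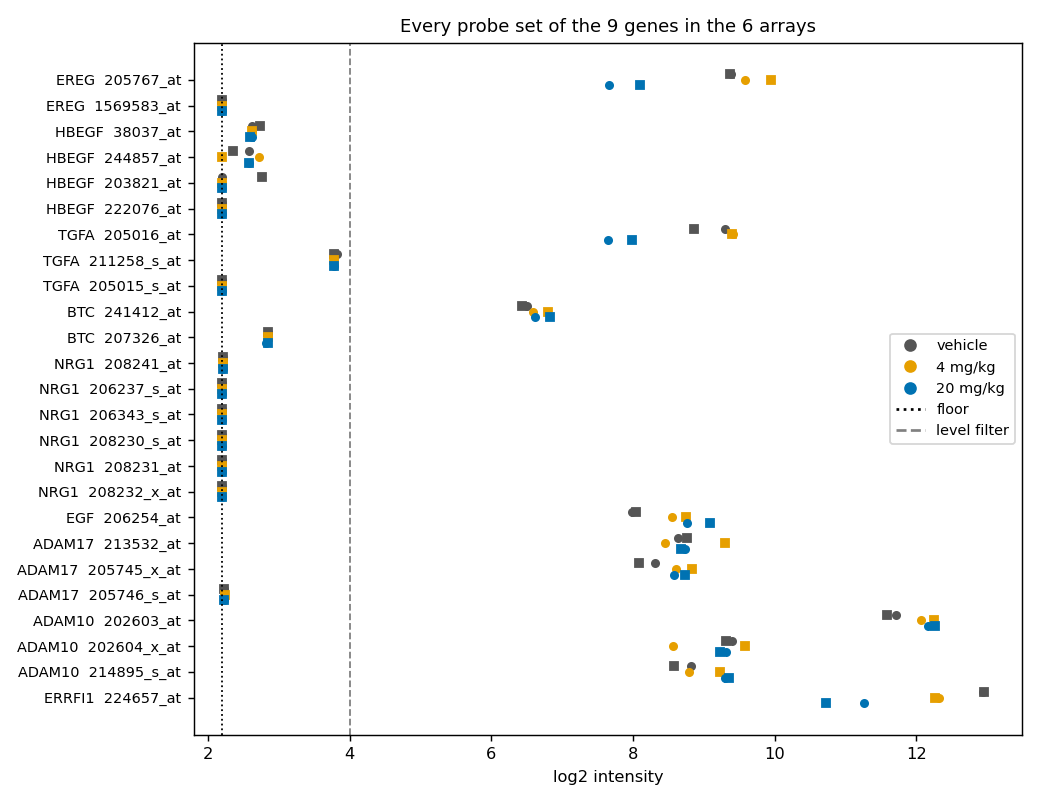
Each row is 1 of the 25 probe sets, and the horizontal axis is the log2 intensity, with a point for each of the 6 arrays (grey vehicle, orange 4 mg/kg, blue 20 mg/kg; circle replicate 1, square replicate 2). The dotted line is the floor at 2.195 and the dashed line the filter at 4; all HBEGF and NRG1 points lie to the left of the filter.

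Comparing 20 mg/kg with vehicle asks how transcripts of this family differ after the higher dose. ERRFI1, the receptor inhibitor, was the 1 of 7 tested genes that fell. EREG and TGFA, ligands of EGFR, also had lower values in both 20 mg/kg arrays, while EGF and ADAM10 had higher values, but none of these 4 passed the test. All 4 did pass after quantile normalization (limma adjusted p from 0.00532 to 0.0183), with centred arrays (0.000636 to 0.0155) and with a filter at a mean log2 of 6 (0.0377 to 0.0495). They also passed without genes tied in all groups (0.0277 to 0.0441), a setting added after the data were seen. Each of these 4 settings makes 5 of 7 called in place of 1. Over all 10271 tested genes, 4.33% were called in the main setting of this comparison, 2.07% lower. That was 445 genes, and the same 4 settings called 1532, 1958, 645 and 819 genes, in that order. In other settings 0 members were called: with the replicate block, with no level filter and with the compared arrays alone.

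ERRFI1 read 7840 and 7977 with vehicle, 5131 and 4925 after 4 mg/kg and 2449 and 1695 after 20 mg/kg. The 3 groups did not overlap, and their order followed the dose. At 20 mg/kg it was 3.88-fold lower than with vehicle (log2 -1.96, SE 0.20, limma adjusted p = 0.0350, n = 2 arrays per group). Fewer cells that express a gene and less of its RNA per cell cannot be told apart in such bulk tumour samples. The value stayed near this size but lost its call without vehicle replicate 1 (log2 -1.97, adjusted p = 0.0770), vehicle replicate 2 (-1.94, adjusted p = 0.136) or either 4 mg/kg array (-1.96, adjusted p = 0.0968), and was -1.69 (adjusted p = 0.0591) without 20 mg/kg replicate 2. The vehicle arrays also had the highest 18S control signal, 1713 and 4058 against at most 637 after treatment, and its part in the ERRFI1 difference was not tested.

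EREG, or epiregulin, read 667 and 663 with vehicle, 765 and 985 after 4 mg/kg and 203 and 274 after 20 mg/kg. The arrays at 20 mg/kg lay below the 4 others, and those at 4 mg/kg lay above vehicle. Against vehicle the value at 20 mg/kg was 2.82-fold lower (log2 -1.50, SE 0.21, limma adjusted p = 0.0546), just outside the threshold of 0.05. Its 95% interval ran from -2.09 to -0.90. The other EREG probe set was at the floor in every array, so the mean of both gave -0.75 (limma adjusted p = 0.0469). A probe set at the floor adds no evidence, so this call is no support beyond the brightest probe set.

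TGFA, or transforming growth factor alpha, read 631 and 464 with vehicle, 681 and 678 after 4 mg/kg and 199.6 and 253 after 20 mg/kg. As with EREG, the lowest levels were in the arrays at 20 mg/kg and the highest in those at 4 mg/kg. The value at 20 mg/kg was 2.41-fold lower than with vehicle (log2 -1.27, SE 0.21, limma adjusted p = 0.0661; 95% interval -1.86 to -0.68). With the mean of its 3 probe sets, of which 1 lay at the floor throughout and 1 between 13.8 and 14.1, it was -0.43 (adjusted p = 0.0615).

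EGF itself read 255 and 265 with vehicle, 376 and 431 after 4 mg/kg and 433 and 543 after 20 mg/kg. Its groups did not overlap and lay in the order of the dose, opposite to ERRFI1. The log2 difference between 20 mg/kg and vehicle was 0.90 (SE 0.14, limma adjusted p = 0.0639; 95% interval 0.49 to 1.31), a 1.87-fold higher mean. BTC, or betacellulin, read 91.0 and 86.4 with vehicle, 96.7 and 112 after 4 mg/kg and 98.0 and 114 after 20 mg/kg. Its treated arrays all lay above vehicle, by 0.25 log2 units at 20 mg/kg (SE 0.12, limma adjusted p = 0.308; 95% interval -0.08 to 0.58).

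**Figure D2:**
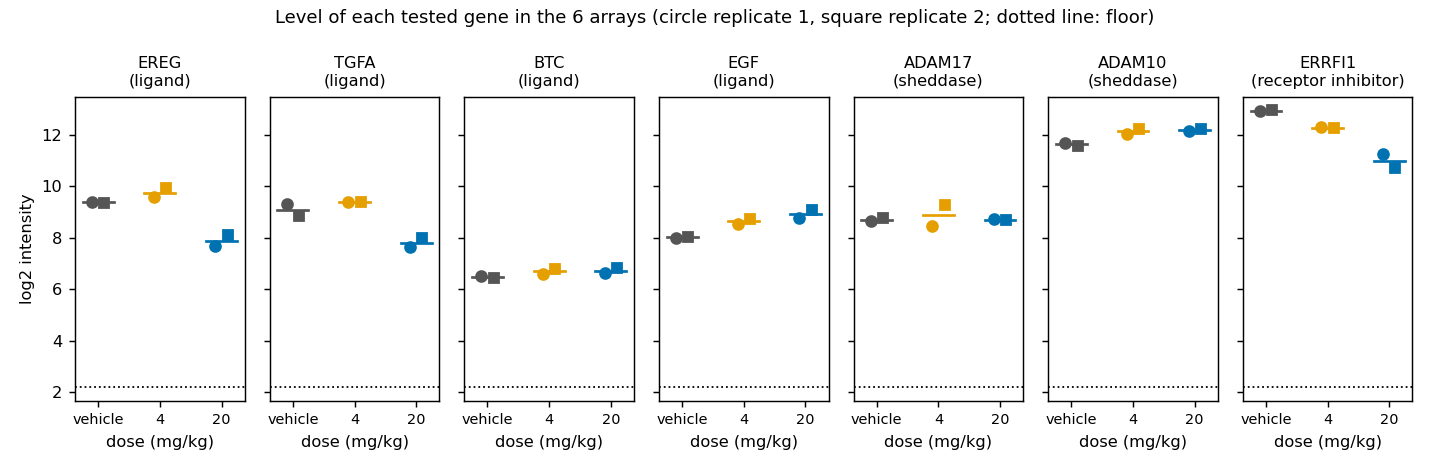
Each panel is 1 tested gene, with the log2 intensity on the vertical axis and the dose in mg/kg on the horizontal axis; a point is 1 array, the short line the mean of the 2 arrays and the dotted line the floor. ERRFI1 steps down with dose, EREG and TGFA are lowest at 20 mg/kg, and EGF is lowest with vehicle.

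The sheddase ADAM10 was measured by 3 probe sets that disagreed. The brightest read 3356 and 3067 with vehicle, 4275 and 4872 after 4 mg/kg and 4614 and 4899.8 after 20 mg/kg, with all treated arrays above vehicle. Its log2 difference at 20 mg/kg was 0.57 (SE 0.09, limma adjusted p = 0.0655; 95% interval 0.31 to 0.83). The probe set 214895_s_at gave a like difference of 0.63, with 450.0 and 383 against 628 and 655. The probe set 202604_x_at gave -0.09, with 675 and 639 against 636 and 599.8, and its 4 mg/kg arrays were far apart at 378 and 764. The endings of both names, _s_at and _x_at, mark probe sets that may cross-hybridise with other transcripts.

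ADAM17 was measured by 2 probe sets past the filter. The brighter, 213532_at, read 399 and 437 with vehicle, 350.2 and 628 after 4 mg/kg and 425 and 411 after 20 mg/kg. The vehicle and 20 mg/kg arrays overlapped and the 4 mg/kg arrays enclosed all others. The difference at 20 mg/kg was 0.00 on the log2 scale (SE 0.31, limma adjusted p = 1), with a 95% interval from -0.90 to 0.90 that leaves room for a near 2-fold change either way. The other, 205745_x_at, read 317 and 273 with vehicle, 391 and 455 after 4 mg/kg and 382 and 428 after 20 mg/kg, a log2 difference of 0.46 (adjusted p = 0.164 over all probe sets). All treated arrays lay above vehicle in this probe set and not in the brighter one.

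Among the 7 tested genes, 3 lay higher and 3 lower at 20 mg/kg with no overlap between arrays, while 50.4% of all tested genes did not overlap, 24.5% higher and 25.9% lower. An unadjusted p under 0.05 was reached by 5 of the 7, beside 24.2% of all tested genes. The median change of the 7 was 0.00, as was that of all tested genes. In the fit over all 16900 probe sets past the filter, of which 3.19% were called, the ERRFI1 probe set was the 1 of 10 called (adjusted p = 0.0413).

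**Figure D3:**
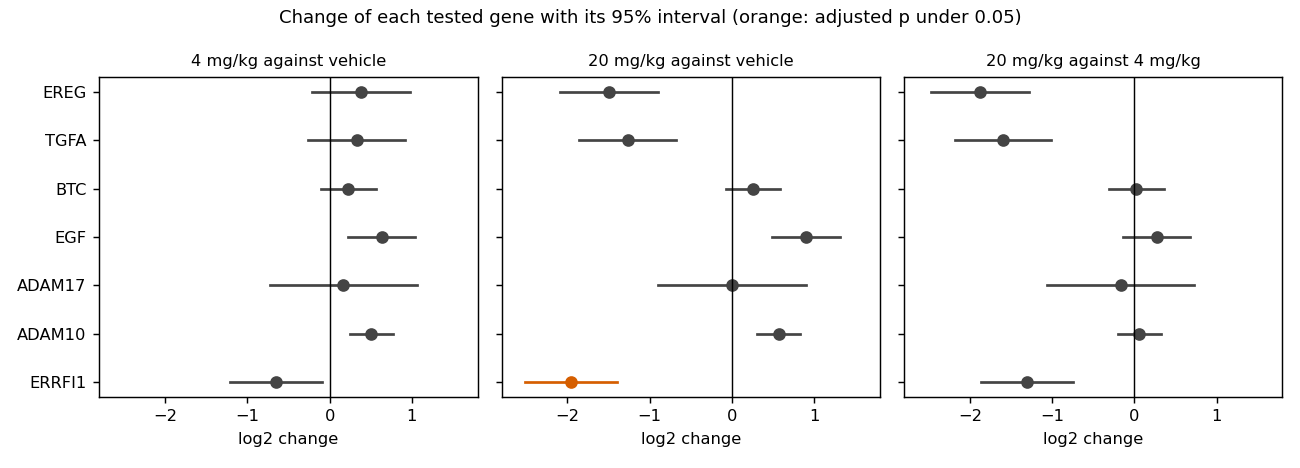
Each row is 1 tested gene, and each panel 1 comparison, with the log2 change on the horizontal axis; points are differences of means of 2 arrays and bars the 95% intervals of the limma fit. In the middle panel ERRFI1 is the one gene in orange, past the adjusted threshold of 0.05; in the right panel EREG, TGFA and ERRFI1 lie at -1.88, -1.60 and -1.30.

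The lower dose, 4 mg/kg, was set against vehicle in the same way. No member passed the test, by either fit. limma called 0.0584% of all tested genes and 0% of all probe sets here, and 3 of the 7 members had an unadjusted p under 0.05, beside 17% of all tested genes. These were ERRFI1, 1.57-fold lower (log2 -0.65, SE 0.20, adjusted p = 0.249), EGF (log2 0.63, SE 0.14, adjusted p = 0.192) and ADAM10 (log2 0.51, SE 0.09, adjusted p = 0.166). EREG and TGFA were at 0.38 (95% interval -0.21 to 0.98) and 0.33 (-0.26 to 0.92), with both 4 mg/kg arrays above both vehicle arrays in each gene. BTC was at 0.23 and ADAM17 at 0.17. The arrays did not overlap in 6 of the 7 genes, 5 higher and 1 lower, and in 37.5% of all tested genes, 22.8% higher and 14.8% lower. The ADAM17 value rested on 4 mg/kg replicate 2 and was -0.25 without it.

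Comparing 20 with 4 mg/kg needs no vehicle array for the difference itself. No member passed here either, with 0.37% of all tested genes and 0.254% of all probe sets called and 3 of the 7 members at an unadjusted p under 0.05, beside 13.4% of all. EREG was 3.68-fold lower at 20 mg/kg (log2 -1.88, SE 0.21, limma adjusted p = 0.0914), TGFA 3.02-fold (log2 -1.60, SE 0.21, adjusted p = 0.105) and ERRFI1 2.47-fold (log2 -1.30, SE 0.20, adjusted p = 0.124). In each of these 3 genes both arrays at 20 mg/kg lay below both at 4 mg/kg. In all, 4 of the 7 genes did not overlap, 1 higher and 3 lower, beside 36.4% of all tested genes, 13.6% higher and 22.8% lower. EGF was at 0.27, BTC at 0.03, ADAM10 at 0.06 and ADAM17 at -0.17. For BTC, ADAM10 and ADAM17 the arrays of the 2 doses overlapped.

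Setting the doses side by side, ERRFI1 was at log2 -0.65 at 4 mg/kg and -1.96 at 20 mg/kg, both against the same vehicle arrays. EREG was at 0.38 and -1.50, and TGFA at 0.33 and -1.27. EGF was at 0.63 and 0.90, ADAM10 at 0.51 and 0.57, and BTC at 0.23 and 0.25. No test of the difference between genes was run.

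The genes with the profile nearest to that of ERRFI1 were PTPRE, a tyrosine phosphatase, CEBPD, a transcription factor, and MAB21L3. Nearness was the root mean square difference over the 6 arrays, with each gene centred on its vehicle mean. It was 0.19, 0.20 and 0.20 log2 units. The choice used these same arrays, so changes near that of ERRFI1 follow from it and are no separate result. At 20 mg/kg against vehicle PTPRE fell by 2.04 on the log2 scale (limma adjusted p = 0.0160) and CEBPD by 1.87 (adjusted p = 0.0326), while MAB21L3 was at -1.81 (adjusted p = 0.0854). PTPRE lost its call without vehicle replicate 2 (-1.97) or either 20 mg/kg array (-2.04). With the mean of its probe sets PTPRE was at -0.69, still called. PTPRE had no tested value with its next brightest probe set. Its fall thus rests on the brightest probe set alone, and the call on the mean adds no support. CEBPD lost its call without either 4 mg/kg array (-1.87) or either 20 mg/kg array (-1.91 and -1.83). When probe sets that may cross-hybridise were left out, CEBPD had no tested value.

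Other genes of the pathway were taken from 7 lists of 73 genes, of which 59 were tested. At 20 mg/kg against vehicle 8 of the 59 were called, 3 higher and 5 lower, or 13.6% beside the 4.33% of all tested genes. Their median change was -0.01, beside 0.00 for all. The lists were chosen with earlier results of these data known, so the higher share cannot be read as an excess. At 4 mg/kg limma called none of the 59, beside 0.0584% of all tested genes. An unadjusted p under 0.05 was reached there by 14 of the 59, beside 17% of all tested genes. Between 20 and 4 mg/kg 1 was called, CX3CL1, beside 0.37% of all tested genes.

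Of the receptors, EGFR, which binds EGF, TGFA, EREG and BTC, fell. It read 5511 and 5403 with vehicle, 4636 and 5153 after 4 mg/kg and 3342 and 3177 after 20 mg/kg (log2 -0.74, SE 0.07, limma adjusted p = 0.0291). The arrays at 20 mg/kg lay below the others. ERBB2, the partner receptor with no ligand of its own, and ERBB3, which binds NRG1, did not pass and are named after their values were seen. ERBB2 was at log2 0.39 (adjusted p = 0.262) and ERBB3 at 0.98 (adjusted p = 0.0803), while ERBB4 was under the filter, with a single reading of 11.4 in all 6 arrays. The EGFR call was lost without vehicle replicate 1 (-0.73, adjusted p = 0.0638), vehicle replicate 2 (-0.76, adjusted p = 0.112), 20 mg/kg replicate 1 (-0.78, adjusted p = 0.135) or 20 mg/kg replicate 2 (-0.71, adjusted p = 0.124). Its next brightest probe set gave -0.94 (adjusted p = 0.182), and the mean of its probe sets -0.28 (adjusted p = 0.0473). The remaining EGFR probe sets thus showed less of the fall or none, and the call on the mean is no support from them.

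Among the receptor inhibitors 1 of 9 passed the test as higher, LRIG1, a membrane protein that promotes the breakdown of EGF receptors. It read 394 and 351 with vehicle, 494 and 678 after 4 mg/kg and 985 and 1036 after 20 mg/kg (log2 1.44, SE 0.18, limma adjusted p = 0.0466). Its groups did not overlap and followed the dose upwards, while ERRFI1 followed it downwards. The LRIG1 probe set ends in _s_at and may cross-hybridise, and LRIG1 had no tested value when such probe sets were left out. The mean of the LRIG1 probe sets gave 0.36, still called, while LRIG1 had no tested value with its next brightest probe set. Its rise thus rests on the brightest probe set alone. A call on this mean can come from the brightest probe set and is no support from the others. The call was lost whichever array was left out: without a vehicle array the value was 1.52 or 1.36, without a 20 mg/kg array 1.48 or 1.40, and without a 4 mg/kg array 1.44, with adjusted p between 0.0543 and 0.198. The median of the list was 0.19.

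Of 11 tested sheddase partners and inhibitors 1 passed the test as lower, TIMP1, a secreted inhibitor of metalloproteases. It read 8099 and 8410 with vehicle, 6338.5 and 6448 after 4 mg/kg and 6673 and 6338.5 after 20 mg/kg. The difference was small (log2 -0.34, SE 0.04, limma adjusted p = 0.0404). Its call was lost whichever array was left out, with values from -0.38 to -0.31. The TIMP1 call was also lost after quantile normalization (-0.29, limma adjusted p = 0.0719) and with centred arrays (-0.38, adjusted p = 0.069). The replicate block, no level filter and the compared arrays alone ended it as well. RHBDF1 and RHBDF2, the iRhom proteins that carry ADAM17 to the cell surface, were among the 10 that did not pass, and the list's median was -0.24. Of these 10, RHBDF2, FRMD8, FURIN, TIMP3, TSPAN14 and TSPAN15 had both 20 mg/kg arrays below vehicle, and TIMP2 above it. Over all tested genes 25.9% lay lower without overlap. TIMP3 was at -0.75 (limma adjusted p = 0.142), and at -0.78 after 4 mg/kg (adjusted p = 0.216). Of 9 other membrane proteases none passed in limma, with 1 at an unadjusted p under 0.05, beside 24.2% of all tested genes. The largest changes were in ADAM9 (log2 0.72, limma adjusted p = 0.0662) and BACE2 (log2 -0.71, adjusted p = 0.268). ADAM9 read 6649 and 5496 with vehicle, 10498 and 11241 after 4 mg/kg and 9564 and 10410.0 after 20 mg/kg, while its next brightest probe set was at -0.11. BACE2 was at -0.10 when probe sets that may cross-hybridise were left out, at -1.01 without vehicle replicate 1 and at -0.41 without vehicle replicate 2. Without vehicle replicate 1 ADAM9 was at 0.86 and passed (adjusted p = 0.0493).

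Other proteins that ADAM10 or ADAM17 can shed had 1 of 17 called higher and 3 called lower, with a median change of -0.01. CX3CL1, a membrane-bound chemokine, read 3128 and 3829 with vehicle, 2349.8 and 2758 after 4 mg/kg and 294 and 266 after 20 mg/kg. It fell against vehicle (log2 -3.63, SE 0.15, limma adjusted p = 0.0112) and against 4 mg/kg (log2 -3.19, adjusted p = 0.0313). The first call was lost without 20 mg/kg replicate 1 (-3.70, adjusted p = 0.0795) or replicate 2 (-3.56, adjusted p = 0.0788), and the second when any array other than 4 mg/kg replicate 1 was left out, with values between -3.26 and -3.07.

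TNFRSF1A, a receptor for TNF, fell (log2 -1.17, SE 0.11, limma adjusted p = 0.0318), from 2111 and 2585 with vehicle to 1042 and 1029.8. SDC4, a heparan sulphate proteoglycan, fell less (log2 -0.54, SE 0.07, adjusted p = 0.0475), from 9782 and 10886 to 7330.2 and 6894. DLL1, a NOTCH ligand, rose (log2 1.79, SE 0.12, limma adjusted p = 0.0210), from 316 and 382 to 1146 and 1256. The probe sets of TNFRSF1A and DLL1 end in _s_at and may cross-hybridise. Neither gene had a tested value when such probe sets were left out. The calls of TNFRSF1A and DLL1 were lost without either array at 4 mg/kg (adjusted p = 0.0911 and 0.0682) or 20 mg/kg (at most 0.159 and 0.106), at values from -1.18 to -1.16 and from 1.72 to 1.86. That of SDC4 was lost when any array other than vehicle replicate 1 was left out, at values from -0.58 to -0.46. With the mean of its probe sets DLL1 was at 0.90, still called. DLL1 had no tested value with its next brightest probe set. The rise thus rests on its brightest probe set alone, and the call on the mean adds no support.

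Of 9 receptor adaptors, which link the activated receptor to RAS and other signals, 1 passed the test as higher, NCK1. It read 1069.8 and 824 with vehicle, 1926 and 2456 after 4 mg/kg and 4288 and 3737 after 20 mg/kg (log2 2.09, SE 0.20, limma adjusted p = 0.0326). The groups did not overlap and followed the dose. Other probe sets gave less: 0.74 for the next brightest (adjusted p = 0.0456) and 0.68 when cross-hybridising probe sets were left out (adjusted p = 0.183), and 0.90 for the mean of all (adjusted p = 0.0617). Leaving out vehicle replicate 2 (1.90), either 4 mg/kg array (2.09) or either 20 mg/kg array (1.99 and 2.19) ended the call as well. NRG2, the 1 tested gene among other ligands of the family, was at 0.14 (adjusted p = 0.826).

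**Figure D4:**
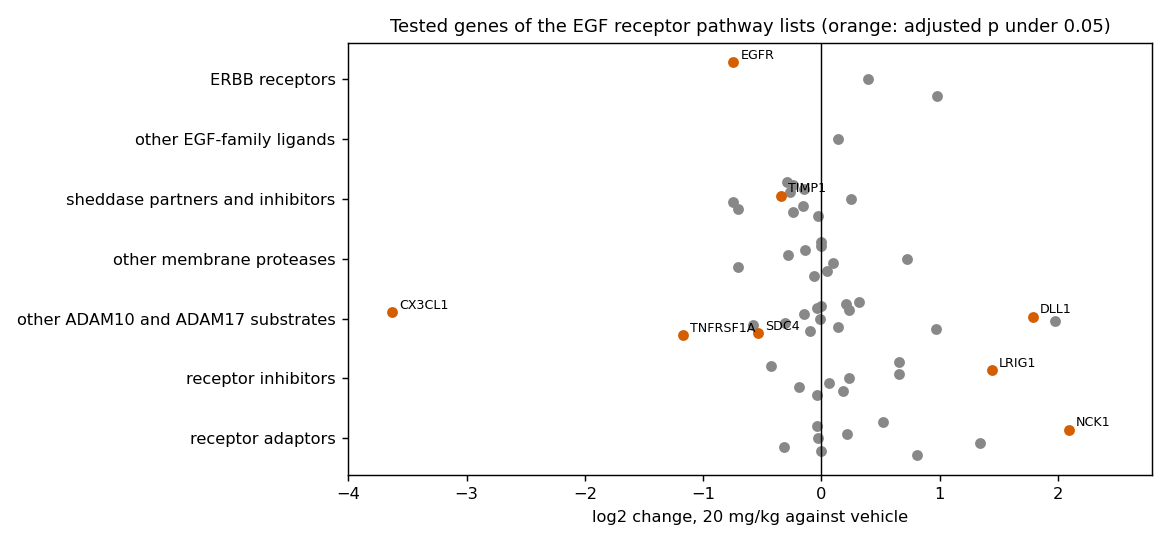
Each point is 1 tested gene of a pathway list, with the log2 change between 20 mg/kg and vehicle on the horizontal axis and the 7 lists on the vertical axis; named orange points passed the adjusted threshold of 0.05. The 8 named genes lie between CX3CL1 at -3.63 and NCK1 at 2.09.

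Of the marker genes, KRT18, an epithelial keratin, fell at 20 mg/kg (log2 -1.54, SE 0.18, limma adjusted p = 0.0416), the 1 of 10 epithelial markers to pass. An unadjusted p under 0.05 was reached by 5 of the 10, beside 24.2% of all tested genes. The list split: KRT8 was at -0.88 (adjusted p = 0.0529), KRT7 at -0.92 and KRT19 at -0.34 with arrays below vehicle, while EPCAM was at 0.50, CDH1 at 0.23 and ESRP1 at 0.32 with arrays above it. KRT18 did not pass whichever array was left out, at values from -1.75 to -1.33. The KRT18 probe set ends in _x_at and may cross-hybridise, and KRT18 had no tested value when such probe sets were left out. The summed intensity of the 10 epithelial markers was 96880 and 107140 with vehicle and 86756 and 93781 at 20 mg/kg. That of the fibroblast markers was 36945 and 39759 against 36308 and 40673, most of it COL1A1, at 33390.0 and 35344 against 31585 and 36324. None of the tested lung, fibroblast, leukocyte or endothelial markers passed in limma, with 0 in each list at an unadjusted p under 0.05. Leukocyte sums lay between 60.2 and 63.9 in all arrays, with PTPRC, CSF1R, TYROBP and FCER1G near the floor. The part of these differences in the members' changes was not tested.

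**Figure D5:**
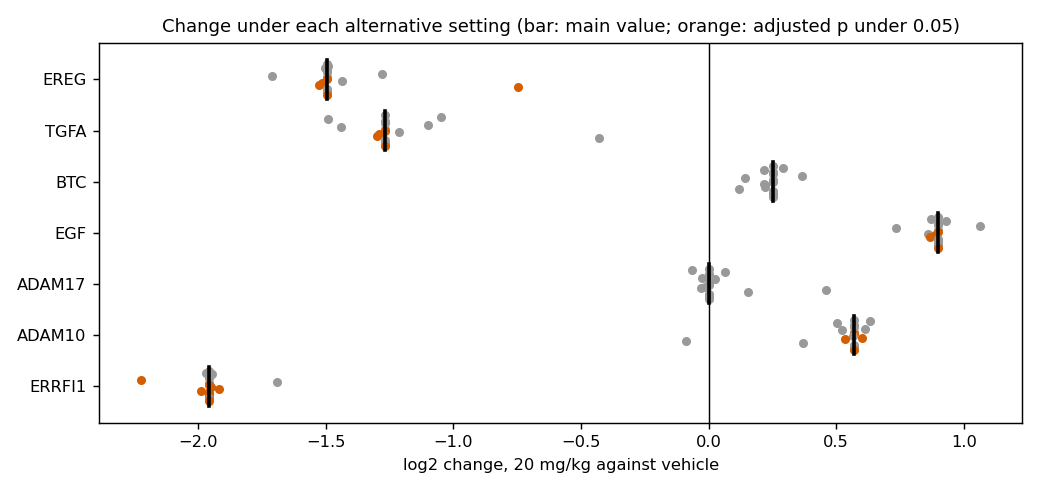
Each row is 1 tested gene, with the log2 change between 20 mg/kg and vehicle on the horizontal axis; a dot is 1 alternative setting, orange where its adjusted p was under 0.05, and the bar is the main value. All dots for EREG, TGFA and ERRFI1 lie below 0 and all for EGF and BTC above 0, while those for ADAM17 and ADAM10 fall on both sides.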

How the data were processed

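Intensity values deposited by the authors are linear. The submitters' processing notes name GCRMA and R 2.10.0. The sources used here do not say whether all arrays entered 1 normalization. GCRMA corrects background by probe sequence, equalises array distributions and summarises probes by median polish, so that arrays can share a value exactly. Among the 10271 genes tested, 531 were tied in all 3 groups within 1e-06.

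Intensities were converted to log2. The platform table that names genes may be out of date; it gives 41097 probe sets 1 gene, 1801 several and 11777 none. Each gene took its brightest single-gene probe set, and genes with a mean log2 level under 4 were left out. All 6 arrays entered 1 limma fit (version 3.58.1, R 4.3.3) with 3 residual and 0.723 prior degrees of freedom. P-values are two-sided, adjusted over all tested genes by Benjamini-Hochberg, threshold 0.05. A second fit used all 16900 probe sets past the filter. Each SE is pooled over the 3 groups. The few arrays limit the precision.

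All members are named. From each pathway list the members past the test with no overlap between arrays are named, or else up to 2 by size of change at 20 mg/kg, and the 3 nearest profiles of each called member. Members and lists were chosen with earlier results of these data known. Steps were tested on simulated data. Alternatives covered the filter, pseudocount, normalization, probe set choice, moderation, block and arrays left out. Sequences and genome coordinates are not used here.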

Additional observations from a re-analysis of the deposited data

How the results depend on the processing

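With 2 arrays per group the number of calls depends on the processing more than the changes do. A fit that leaves out 1 array takes the lone array's spread from the other groups. At 20 mg/kg against vehicle 1 member gene was called, 0 to 1 with 1 array left out, 0 with the replicate block, with no level filter and with the 4 compared arrays alone, 2 with averaged probe sets, 5 with a mean log2 of at least 6, after quantile normalization, with centred arrays and, added after seeing the data, without genes tied in all groups. In each of those 4 settings the 5 genes were ERRFI1, EREG, TGFA, EGF and ADAM10. The 2 with averaged probe sets were ERRFI1 and EREG, and the probe set added for EREG lay at the floor in every array. Quantile normalization and centring left 0 genes tied in all groups, against 531, and prior degrees of freedom were 2.13 and 4.97, against 0.723. The range of the adjusted p over the alternatives was 0.000707 to 0.136 for ERRFI1, 0.000636 to 0.187 for EREG and 0.00227 to 0.234 for TGFA.

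Of the member probe sets 1 was called, 0 to 1 with 1 array left out, 0 with the replicate block, with no filter, with the compared arrays alone and with trend and robust moderation, 2 with the stricter filter, 6 after quantile normalization or centring and 4 without ties. Of the pathway genes 8 were called, 0 to 8 with 1 array left out, 2 with the replicate block or the compared arrays alone, 1 with no filter, 16 after quantile normalization, 20 with centred arrays, 4 when cross-hybridising probe sets were left out and 13 without ties. At 4 mg/kg centring gave 1 member gene (EGF), 1 member probe set and 8 pathway genes, against 0 otherwise, except that leaving out 1 array gave 0 to 3 pathway genes. For 20 against 4 mg/kg quantile normalization and centring gave 3 member genes each (EREG, TGFA and ERRFI1) and 2 and 3 probe sets, against 0. The 1 pathway gene became 0 to 1 with 1 array left out, 0 with the replicate block, with no filter, with the next brightest probe set and with the compared arrays, 2 with the stricter filter or without ties, 7 after quantile normalization and 9 after centring. Over all genes the 445 calls at 20 mg/kg ran from 5 to 1958, the 6 at 4 mg/kg from 0 to 766 and the 38 between doses from 0 to 494.

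The values that changed sign passed the test neither in the main setting nor where they turned. ADAM17 at 20 mg/kg ran from -0.0641 to 0.0646 with 1 array left out, and was -0.0141 with quantile normalization and -0.0315 when centred. With 1 array left out ADAM17 ran from -0.2536 to 0.5877 at 4 mg/kg and from -0.5875 to 0.2539 between doses, both turned by 4 mg/kg replicate 2. The next brightest probe set gave -0.0884 and -0.2899 for ADAM10 against vehicle and -0.1092 for ADAM9. With 1 array left out ADAM10 between doses ran from -0.0351 to 0.1536, BTC from -0.0845 to 0.1356 and NRG2 at 20 mg/kg from -0.1605 to 0.4394. The labels do not say that replicate numbers pair arrays, and deviations of same-numbered arrays correlated at 0.146, -0.118 and 0.127, so the block is only an alternative. HBEGF and NRG1 lay under the level filter and were not tested.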
